A study of Mus musculus with 46 samples.

Results

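The genes described here encode enzymes of the last stretch of cholesterol synthesis, from squalene to cholesterol. They were chosen by name as 9 members of that route: Fdft1, Sqle, Lss, Cyp51, Msmo1, Nsdhl, Hsd17b7, Ebp and Dhcr7. All 9 had a row among the 24671 genes of the deposited table, and all 9 passed the filter on low counts, which left 13838 genes for testing. The study treated mouse bone marrow-derived macrophages, primary cells grown from marrow, with ligands of the liver X receptors (LXR) and the estrogen receptors, and measured polyadenylated RNA by sequencing.

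The 46 libraries fell into 9 treatment groups, with 6 Vehicle libraries and 5 in every other group. The single agents were 27HC (27-hydroxycholesterol, an oxysterol made from cholesterol that is a ligand of both receptor families), E2 (estradiol), ICI (the usual short name of an estrogen receptor antagonist), GW3965 (a synthetic LXR agonist) and GSK2033 (a synthetic LXR antagonist). In 3 groups agents were combined, namely ICI plus 27HC, GSK2033 plus 27HC, and GW3965 plus a second compound. That second compound stays unnamed, because the sample titles call it 27HC and the other label fields call it ICI. Vehicle is the common control and holds no agent. The labels used here give no strain, sex, age, dose or duration, and are silent on whether replicate libraries stem from different animals or cultures. The p-values therefore reflect the library-to-library spread seen here, which may be technical.

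Cholesterol is built in the endoplasmic reticulum. Early enzymes turn acetyl units into farnesyl diphosphate, and the enzymes described here join that unit into squalene, close it into lanosterol, and then remove methyl groups, move a double bond and reduce the product. Most genes of the route are switched on by the transcription factor encoded by Srebf2, which stays in the membrane, held by Insig proteins, when sterols are plentiful. Oxysterols bind Insig and also activate LXR, whose textbook targets in macrophages are the efflux transporters Abca1 and Abcg1 and the lipogenic factor gene Srebf1.

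Library totals ran from 19354093 to 30921038 estimated counts. The 7 macrophage markers summed to 20151 CPM (counts scaled to library size) in Vehicle, and neutrophil, lymphocyte, dendritic cell and erythroid markers each summed to no more than 2.96 CPM in any library. Mast cell and basophil markers summed to 2.84 to 10.4 CPM and osteoclast markers to 23.8 to 53.7 CPM over all libraries. Collagen-led stromal markers were not near 0: the 9 genes summed to 4281 to 5054 CPM in the Vehicle libraries, with Col1a1 from 986 to 2024 and Sparc from 714 to 1150 CPM over all libraries, while 2 of the 9 averaged under 1 CPM in each group. In 27HC the same sums ran from 3375 to 3820 CPM.

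Promoter sequences are shown for 3 members because they include a gene that fell strongly with 27HC (Cyp51), the member first or second by level per kilobase in Vehicle (Msmo1) and the member not called with 27HC, GSK2033 or ICI (Ebp). RefSeq (GRCm38.p6) gave a window from 250 bases before to 50 bases after the start site for 7 of the 9 members; Fdft1 and Sqle are named only. Each run reads 5′ to 3′ on the gene's strand, and capitals mark every CCAAT box, the letters bound by NF-Y, read on either strand (ATTGG on the opposite one).
Cyp51, chr5:4104648-4104947, minus strand: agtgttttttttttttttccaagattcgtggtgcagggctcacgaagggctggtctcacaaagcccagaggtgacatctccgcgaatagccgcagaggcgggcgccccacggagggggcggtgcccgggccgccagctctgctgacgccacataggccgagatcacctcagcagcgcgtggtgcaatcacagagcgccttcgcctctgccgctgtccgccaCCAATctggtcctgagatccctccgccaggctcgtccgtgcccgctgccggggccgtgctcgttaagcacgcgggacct
Msmo1, chr8:64733529-64733828, minus strand: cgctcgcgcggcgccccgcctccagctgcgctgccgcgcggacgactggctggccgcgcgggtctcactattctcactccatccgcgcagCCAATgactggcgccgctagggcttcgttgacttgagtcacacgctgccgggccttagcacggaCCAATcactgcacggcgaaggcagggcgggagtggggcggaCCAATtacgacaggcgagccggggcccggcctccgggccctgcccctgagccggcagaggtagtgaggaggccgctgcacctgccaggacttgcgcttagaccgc
Ebp, chrX:8193463-8193762, minus strand: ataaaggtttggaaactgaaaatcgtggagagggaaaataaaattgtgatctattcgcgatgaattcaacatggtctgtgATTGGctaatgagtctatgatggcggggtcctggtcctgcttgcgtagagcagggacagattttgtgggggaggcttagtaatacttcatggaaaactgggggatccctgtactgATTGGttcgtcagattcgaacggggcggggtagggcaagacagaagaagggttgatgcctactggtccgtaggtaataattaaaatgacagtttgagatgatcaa
The Cyp51 window held 1 CCAAT box, the Msmo1 window 3 and the Ebp window 2. At least 1 CCAAT box was found in 7 of the 7 members with a window, against 41.1% of all 27025 genes. The GC box GGGCGG, the letters bound by Sp1, was also in 7 of 7, against 38.2% of genes, and its outer bases can be shared with a CCAAT box. The E-box CACGTG was in the windows of Dhcr7 and Hsd17b7, against 8.09% of genes. The sterol regulatory element core TCACNCCAC was in 0 of the 7 members' windows and in 1.44% of genes, so 0 is near that share. Forms of the element with other letters were not searched, so its absence is not shown. All 4 motifs were searched on both strands. These matches are descriptions of letters only, and Dhcr7 had 3 windows, which gave it more room for a match.

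Levels between genes were compared per kilobase of exon. In Vehicle, the union of exons gave Ebp 20.5 CPM per kilobase, Msmo1 17.7, Cyp51 14.1, Sqle 8.74, Nsdhl 7.77, Fdft1 6.60, Dhcr7 5.92, Hsd17b7 3.71 and Lss 1.84. With the length of the longest transcript instead, Msmo1 stood first at 36.6 CPM per kilobase and Ebp second at 27.1, so the order of those genes depends on the length used. Lss was lowest by either length. The summed CPM of the 9 members was 390 ± 16.8 in Vehicle (SD, n = 6) and 399 ± 12.5 in E2, 355 ± 8.91 in GW3965, 239 ± 7.71 in ICI, 208 ± 5.61 in GSK2033 and 194 ± 10.4 in 27HC (SD, n = 5 each). It was 222 ± 6.42 with GW3965 and the second compound, 191 ± 2.77 with ICI and 27HC, and 182 ± 7.31 with GSK2033 and 27HC. The groups thus lay in 2 bands, Vehicle, E2 and GW3965 above 345 CPM in every library and the other 6 groups below 249 CPM.

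**Figure D1:**
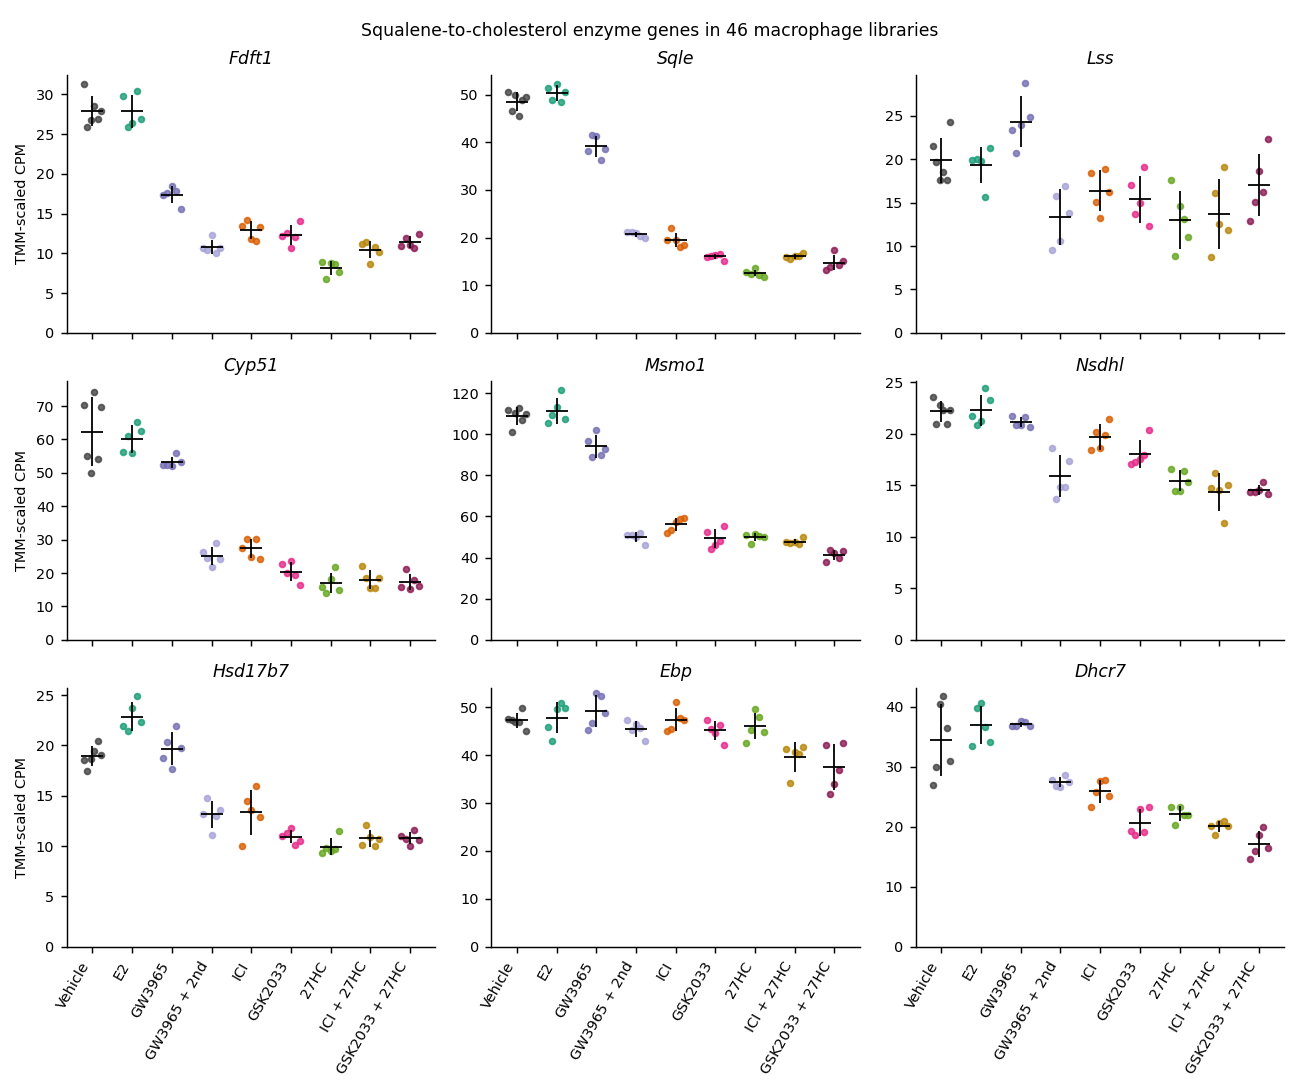
TMM-scaled CPM of each enzyme gene (y axis, from 0) in the 9 treatment groups (x axis); points are libraries, and black marks are the group mean with its SD. Sqle runs from 45.6 to 50.5 CPM in Vehicle and from 11.8 to 13.7 in 27HC, while Ebp stays between 42.6 and 49.9 in the libraries of both groups.

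27HC lowered 8 of the 9 enzyme genes against Vehicle and raised 0, where 20.0% of all tested genes were called lower and 20.3% higher (edgeR quasi-likelihood test, Benjamini-Hochberg adjusted p under 0.05). The median difference over the members was -0.93 on the log2 scale, beside 0.00 over all genes. Sqle, Cyp51 and Fdft1 fell most, and Ebp did not pass the test. In bulk RNA, fewer cells with a transcript and less transcript per cell cannot be told apart.

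Fdft1 (ENSMUSG00000021273, GRCm38 chromosome 14, 63145150 to 63179578, minus strand), squalene synthase, commits farnesyl diphosphate to sterols. Its Vehicle libraries had a lowest value of 25.9, a median of 27.5 and a highest of 31.3 CPM, and the 27HC libraries had 8.94, 6.78, 8.82, 8.68 and 7.64 CPM. Every 27HC library was below every Vehicle library, a difference of -1.77 (SE 0.0759, adjusted p = 5.37e-24), or 3.41-fold. Sqle (ENSMUSG00000022351, chromosome 15, 59315077 to 59331192, plus strand), squalene epoxidase, is an oxygen-dependent control point of the route. It had 45.6, 49.1 and 50.5 CPM as lowest, median and highest in Vehicle and 12.8, 12.3, 13.7, 12.2 and 11.8 CPM in 27HC. The groups did not overlap, and the difference of -1.95 (SE 0.0523, adjusted p = 1.31e-31), or 3.85-fold, was the largest among the members. Lss (ENSMUSG00000033105, chromosome 10, 76531588 to 76557138, plus strand), lanosterol synthase, closes the rings. It ranged from 17.6 to 24.3 CPM in Vehicle with a median of 19.1, and had 17.6, 8.89, 14.6, 13.1 and 11 CPM in 27HC. The highest 27HC library reached the lowest Vehicle libraries, and the difference was -0.60 (SE 0.164, adjusted p = 0.00274). Its spread within 27HC was wide, with an SD of 3.34 around a mean of 13 CPM.

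Cyp51 (ENSMUSG00000001467, chromosome 5, 4081145 to 4104746, minus strand) encodes lanosterol 14-alpha demethylase, which acts on lanosterol. Its Vehicle libraries split into a lower set of 50, 54.2 and 55.1 CPM and a higher set of 69.7, 70.4 and 74.4 CPM, and the 27HC libraries had 15.7, 14.1, 18.3, 21.8 and 15 CPM. All 27HC libraries lay far below both sets, by -1.87 (SE 0.110, adjusted p = 1.17e-18). Msmo1 (ENSMUSG00000031604, chromosome 8, 64718139 to 64733792, minus strand), the C4-methyl sterol oxidase, had 101, 110 and 113 CPM as lowest, median and highest in Vehicle. In 27HC it had 50.8, 46.6, 51.3, 50.5 and 50.2 CPM, again with no overlap, a difference of -1.12 (SE 0.0476, adjusted p = 3.35e-24). Nsdhl (ENSMUSG00000031349, chromosome X, 72918557 to 72958514, plus strand), the sterol dehydrogenase that works on the same methyl groups, had 21.0, 22.3 and 23.6 CPM in Vehicle and 16.6, 14.5, 14.5, 16.4 and 15.4 CPM in 27HC. Its fall was smaller, -0.52 (SE 0.0672, adjusted p = 1.2e-08), and the groups still did not overlap. Hsd17b7 (ENSMUSG00000026675, chromosome 1, 169949535 to 169969241, minus strand), the 3-ketosteroid reductase of C4 demethylation, which can also reduce estrone to estradiol, had 17.5, 18.9 and 20.5 CPM in Vehicle. It had 9.28, 9.83, 9.47, 9.70 and 11.5 CPM in 27HC, all below Vehicle, a difference of -0.93 (SE 0.0790, adjusted p = 1.15e-13).

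Ebp (ENSMUSG00000031168, chromosome X, 8185329 to 8193512, minus strand), the sterol delta8-delta7 isomerase, had 45, 47.2 and 49.9 CPM as lowest, median and highest in Vehicle and 42.6, 45.3, 49.7, 48.0 and 44.9 CPM in 27HC. The groups overlapped along most of their range, and the difference of -0.04 had a 95% interval of -0.16 to 0.08 (adjusted p = 0.644). Dhcr7 (ENSMUSG00000058454, chromosome 7, 143823145 to 143848410, plus strand), the last reductase of the Kandutsch-Russell branch, ranged from 27.0 to 41.7 CPM in Vehicle with a median of 33.7, and had 23.3, 20.2, 23.2, 21.9 and 22 CPM in 27HC. Its Vehicle libraries were spread, but none reached down to the 27HC libraries, and the difference was -0.64 (SE 0.0815, adjusted p = 1.03e-08). All 9 genes are protein coding. Fdft1 overlaps Ctsb, Cyp51 overlaps Akap9 and Lss overlaps the antisense gene 4930483K19Rik, each on the opposite strand. The labels do not state how strand entered the counting, so reads of overlapping stretches are uncertain.

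Early enzymes of the route also fell. Of other enzymes acting after squalene, Sc5d, the lathosterol oxidase, was lower with 27HC by -0.84 (adjusted p = 1.46e-15). All 8 early enzymes were called lower, with a median of -0.94, led by Idi1 at -2.49. Of 7 sterol-sensing genes, Insig1 (-1.71) and Srebf2 (-1.51) were lower and Srebf1 and Mbtps2 higher. These counts were near the shares of all genes called lower and higher, which do not speak to the size of a change. Of 9 genes of the non-sterol isoprenoid branch, which draws on the same farnesyl diphosphate, 2 were higher, also near the share of all genes, and 0 lower. Stromal marker genes also moved in this comparison, with 5 of 8 tested lower and 1 higher, and 5 of 7 macrophage markers were lower and 1 higher; their part in the result was not tested.

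**Figure D2:**
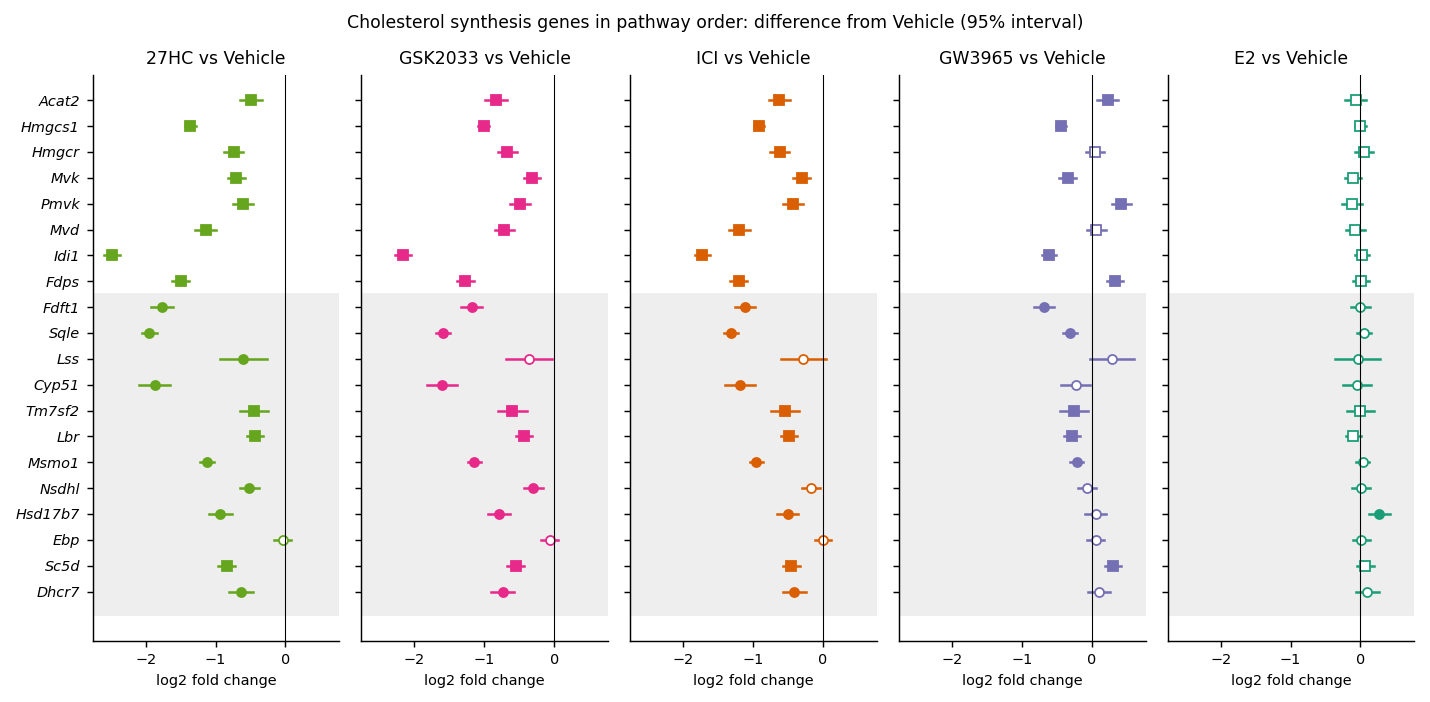
Log2 fold change against Vehicle (x axis) with its 95% interval for 20 cholesterol synthesis genes in pathway order (y axis), for 5 single agents; circles are the 9 members, squares other enzymes, filled where the adjusted p is under 0.05, and the grey band marks the steps from squalene synthase onward. With 27HC, GSK2033 and ICI nearly all marks lie left of 0, Ebp sits at 0, and with E2 only Hsd17b7 is filled.

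GW3965 lowered 3 of the 9 genes and raised 0, where 21.1% of all genes were called lower and 23.1% higher. Fdft1 had 17.4, 17.6, 18.5, 17.8 and 15.6 CPM, below every Vehicle library, a difference of -0.68 (SE 0.0706, adjusted p = 2.71e-11). Sqle had 38.2, 41.5, 41.4, 36.2 and 38.5 CPM, also below every Vehicle library, at -0.31 (adjusted p = 4.63e-07). Msmo1 had 96.9, 88.7, 102, 90.0 and 92.7 CPM and overlapped Vehicle at its upper end, with a difference of -0.21 (adjusted p = 0.000154). Cyp51 stood at -0.23 (adjusted p = 0.0613) and passed the test when Vehicle replicate 2, 3 or 5 was left out (-0.28 to -0.26) and with a stricter filter on low counts (-0.24, adjusted p = 0.0492). Lss was 0.29 above Vehicle (adjusted p = 0.128). Nsdhl, Hsd17b7, Ebp and Dhcr7 differed by -0.07 to 0.11 and did not pass. The median over the members was -0.07. In the same comparison 6 of 8 stromal markers were called lower and 0 higher, and 5 of 7 macrophage markers lower and 2 higher. The macrophage sum was 10914 CPM against 20151 in Vehicle, and the part of these markers was not tested.

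27HC and GW3965 were compared with each other because both act on LXR; their doses are not given, so matched dosing is unknown. In 27HC 8 of 9 genes were lower than in GW3965, where 12.5% of all genes were called lower and 12.8% higher. Cyp51 and Sqle differed most, both by -1.64, and Lss, with no overlap between the groups here, by -0.89 (adjusted p = 4.88e-05). Fdft1 was at -1.09, Hsd17b7 at -0.99, Msmo1 at -0.91, Dhcr7 at -0.74 and Nsdhl at -0.45. Ebp differed by -0.10, with a 95% interval of -0.22 to 0.03. Stromal markers summed to 3564 CPM in 27HC and 3597 in GW3965, with 2 of 8 called higher in 27HC and 1 lower. Macrophage markers summed to 14476 and 10914 CPM, with 5 of 7 called higher in 27HC and 1 lower. The part of these markers was not tested. Abcg1, the efflux transporter, averaged 342 CPM in 27HC and 976 in GW3965.

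GSK2033 lowered 7 of 9 genes and raised 0, where 17.9% of all genes were called lower and 18.4% higher, and the members' median was -0.79. Fdft1 had 12.2, 12.6, 10.6, 12 and 14.1 CPM, all below Vehicle, at -1.18 (adjusted p = 5.23e-18). Sqle had 16, 16.2, 16.3, 16.5 and 15.1 CPM, a tight group well below Vehicle at -1.60 (adjusted p = 2.6e-28). Cyp51 had 22.8, 20.1, 23.6, 19.4 and 16.4 CPM and differed by -1.61 (adjusted p = 2.14e-16). Msmo1, with 52.3, 44.3, 46.3, 48.0 and 55.6 CPM, differed by -1.14 (adjusted p = 5.36e-24), and no library of these 4 genes reached Vehicle. Dhcr7 at -0.74, Hsd17b7 at -0.79 and Nsdhl at -0.30 were also lower without overlap. A share of all genes without overlap was not counted. Lss at -0.36 (adjusted p = 0.0755) passed when GSK2033 replicate 4 was left out (-0.45) and in a fit of only the 2 groups (-0.37, adjusted p = 0.0193), and Ebp was at -0.07. In the same comparison Abcg1 averaged 1.34 CPM, and Sc5d, Tm7sf2 and 8 of 8 early enzymes were lower. Stromal markers were called lower in 4 of 8, and macrophage markers lower in 5 of 7 and higher in 1. Their part was not tested. Both the LXR agonist 27HC and the LXR antagonist GSK2033 were compared with the same Vehicle libraries, so these counts share their controls.

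E2 moved 1 of 9 genes, where 2.2% of all genes were called higher and 2.49% lower. Hsd17b7 had 21.9, 21.4, 23.7, 24.9 and 22.3 CPM in E2, above every Vehicle library, a difference of 0.27 (SE 0.0740, adjusted p = 0.0211). The call was lost without Vehicle replicate 2, E2 replicate 3 or E2 replicate 4 (0.24 to 0.25). Fdft1, Sqle, Lss, Cyp51, Msmo1, Nsdhl, Ebp and Dhcr7 differed from Vehicle by -0.05 to 0.10 and did not pass. ICI lowered 6 of 9 and raised 0, where 12.5% of all genes were called lower and 13.9% higher. Fdft1 had 13.4, 14.2, 11.8, 11.6 and 13.4 CPM in ICI, at -1.11 (adjusted p = 5.12e-17), and Sqle had 19.5, 22, 19.6, 18.0 and 18.5 CPM, at -1.31 (adjusted p = 6.03e-25), both below all Vehicle libraries. Cyp51 was at -1.19, Msmo1 at -0.95, Hsd17b7 at -0.51 and Dhcr7 at -0.41, the last with overlapping libraries. Nsdhl at -0.17 (adjusted p = 0.0534) passed without Vehicle replicate 2 or 5 or ICI replicate 5 (-0.21 to -0.18). It also passed with DESeq2 (adjusted p = 0.0406), with a stricter filter (0.0451) and in a fit of only the 2 groups (0.0317). Lss was at -0.28 (adjusted p = 0.219) and Ebp at 0.00. Stromal markers summed to 3863 CPM in ICI, with 6 of 8 called lower, and 4 of 7 macrophage markers were lower and 3 higher; their part was not tested.

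E2, an estrogen receptor agonist, and ICI were also set against each other directly. E2 was higher than ICI in 6 of 9 genes, where 13.1% of all genes were called higher and 14.4% lower. The differences were 1.37 for Sqle, 1.14 for Cyp51, 1.11 for Fdft1, 0.99 for Msmo1, 0.77 for Hsd17b7 and 0.51 for Dhcr7, and libraries did not overlap in any of these 6. Overlap was not counted over all genes. Nsdhl at 0.17 (adjusted p = 0.0526) passed without E2 replicate 2 or 3 or ICI replicate 5 (0.20 to 0.21), with DESeq2 (adjusted p = 0.0407) and with a stricter filter (0.0442). Lss was at 0.24 and Ebp at 0.01. Stromal markers were higher in E2 for 7 of 8 genes, and macrophage markers for 4 of 7 with 3 lower; their part was not tested.

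27HC added on top of GSK2033 lowered fewer of these genes than 27HC alone did. Against GSK2033 alone, 4 of 9 were lower and 0 higher, where 18.8% of all genes were called lower and 17.1% higher. Nsdhl had 14.3, 14.3, 14.6, 15.3 and 14.2 CPM with both agents and 17.1, 17.2, 17.6, 17.9 and 20.3 with GSK2033, without overlap, at -0.31 (adjusted p = 0.000442). Ebp had 42.1, 32.0, 34.0, 36.9 and 42.6 CPM with both, against 47.4, 45.5, 44.7, 46.4 and 42.0, with overlap, at -0.27 (adjusted p = 0.000369). Msmo1 was at -0.25 without overlap and Dhcr7 at -0.27 (adjusted p = 0.0145). The Dhcr7 call was lost without GSK2033 replicate 3 or 5 or the combined group's replicate 1 or 2 (-0.23 to -0.21). Fdft1 at -0.11, Sqle at -0.12, Cyp51 at -0.25, Hsd17b7 at -0.02 and Lss at 0.14 did not pass; Sqle passed without the combined group's replicate 3 (-0.18), and Cyp51 without GSK2033 replicate 5 or the combined group's replicate 2 (-0.32 to -0.30). Stromal markers were lower in 3 of 8 and macrophage markers in 4 of 7, and their part was not tested.

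The interaction, the change with 27HC in the presence of GSK2033 minus the change without it, was above 0 for 7 genes and below 0 for 1, where 9.34% of all genes were called higher and 10.3% lower. It was 1.82 (SE 0.0757) for Sqle, 1.66 for Fdft1, 1.63 for Cyp51, 0.91 for Hsd17b7, 0.87 for Msmo1, 0.74 for Lss and 0.37 for Dhcr7. Ebp went the other way at -0.23 (adjusted p = 0.0453), and Nsdhl, at 0.21, did not pass. An interaction above 0 was not a return to Vehicle levels. With both agents Sqle averaged 14.8 and Cyp51 17.2 CPM, against 48.5 and 62.3 CPM in Vehicle. The Lss call was lost without the combined group's replicate 5 (0.64), that of Dhcr7 in 4 of 21 fits with 1 library left out (0.30 to 0.33), and that of Ebp in 15 of 21 (-0.23 to -0.17). In a fit of only the 4 groups neither Dhcr7 (adjusted p = 0.0928) nor Ebp (adjusted p = 0.0663) passed. For Dhcr7 those libraries were Vehicle replicates 3 and 4, GSK2033 replicate 2 and the combined group's replicate 4. For Ebp they were Vehicle replicates 1 to 4 and 6, replicates 3 to 5 of 27HC, GSK2033 replicates 1 to 4 and the combined group's replicates 2 to 4. The same interaction was above 0 for 2 and below 0 for 2 of 8 stromal markers, and for 3 and 3 of 7 macrophage markers.

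Against 27HC alone, GSK2033 with 27HC left 2 genes higher and 3 lower, where 21.1% of all genes were called higher and 21.7% lower. Fdft1 had 11, 11.9, 11, 10.6 and 12.5 CPM with both, above all 27HC libraries, at 0.48 (adjusted p = 3.77e-06), and Sqle was 0.23 higher with overlap. Msmo1 was at -0.27 and Dhcr7 at -0.37, both without overlap, and Ebp at -0.30. Lss at 0.38 passed without replicate 1 of either group (0.48 to 0.51). Cyp51 at 0.02, Nsdhl at -0.09 and Hsd17b7 at 0.12 did not pass. Stromal markers were higher in 2 and lower in 3 of 8, and macrophage markers higher in 1 and lower in 5 of 7. Their part was not tested.

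ICI with 27HC against 27HC alone left 2 genes higher and 1 lower, where 16.8% of all genes were called higher and 17.4% lower. Sqle had 15.9, 15.4, 16.1, 16.1 and 16.7 CPM with both, above all 27HC libraries, at 0.35 (adjusted p = 1.74e-06). Fdft1 was also at 0.35, with overlap. Ebp had 41.3, 34.2, 40.8, 40.3 and 41.7 CPM, below all 27HC libraries, at -0.22 (adjusted p = 0.00446). Lss at 0.06, Cyp51 at 0.08, Hsd17b7 at 0.11, Msmo1 at -0.06, Nsdhl at -0.10 and Dhcr7 at -0.14 did not pass. Stromal markers summed to 2940 CPM with both agents and 3564 with 27HC, with 6 of 8 lower. Of the macrophage markers, 6 of 7 were lower and 1 higher, and the part of these markers was not tested. Ebp was therefore lower in both groups that combined 27HC with another named agent, each compared with the same 27HC libraries. The interaction of ICI and 27HC was above 0 for 5 genes and below 0 for 0, where 7.39% of all genes were called higher and 9.97% lower. It was 1.67 for Sqle, 1.47 for Fdft1, 1.27 for Cyp51, 0.89 for Msmo1 and 0.62 for Hsd17b7. Ebp at -0.22 passed without ICI replicate 1 or 27HC replicate 1 (-0.25 to -0.24), and Dhcr7 at 0.27 without Vehicle replicate 1 (0.33). Lss at 0.33 and Nsdhl at 0.07 did not pass. Of 7 macrophage markers 6 had an interaction below 0 and 1 above 0.

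**Figure D3:**
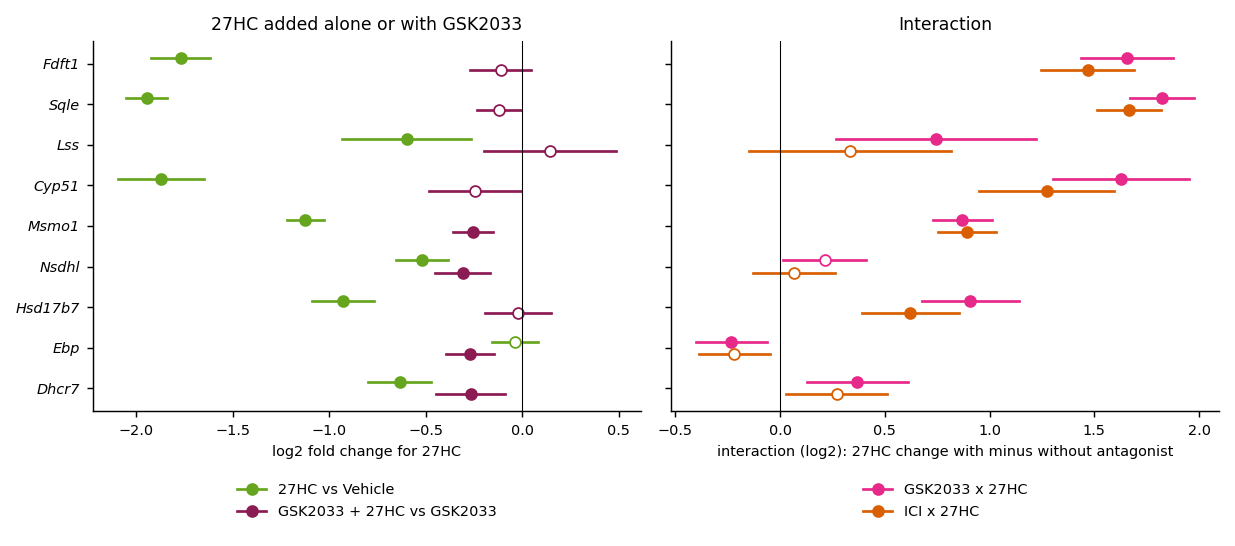
Left, log2 fold change for 27HC (x axis) with its 95% interval when added alone or with GSK2033, per gene (y axis); right, the interaction of GSK2033 or ICI with 27HC on the log2 scale; filled circles have an adjusted p under 0.05. Sqle moves by -1.95 with 27HC alone and by -0.12 when GSK2033 is present, and its interactions are 1.82 and 1.67. GSK2033 alone had already moved Sqle by -1.60 and ICI alone by -1.31 against Vehicle.

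GW3965 with the second compound, against GW3965 alone, lowered 8 of 9 genes and raised 0, where 9.56% of all genes were called lower and 7.93% higher. Cyp51 had 26.2, 24.6, 21.8, 29.0 and 24.2 CPM against 52.4, 52.2, 51.9, 56.0 and 53.2 with GW3965 alone, at -1.08 (adjusted p = 2.13e-10). Sqle had 21.1, 21.1, 20.9, 20.4 and 19.9 CPM, at -0.92 (adjusted p = 8.8e-19). In all 8 genes no library of the combined group reached the GW3965 libraries. How many of all genes were free of overlap here was not counted. Msmo1 was at -0.91, Lss at -0.86, Fdft1 at -0.69, Hsd17b7 at -0.59, Dhcr7 at -0.43 and Nsdhl at -0.42, and Ebp at -0.11 did not pass. Stromal markers summed to 3007 CPM in the combined group and 3597 in GW3965, with 6 of 8 lower. Of the macrophage markers, 4 of 7 were lower and 2 higher, and the part of these markers was not tested.

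The members did not fall in fixed proportion. Each was expressed as a log2 ratio to Fdft1 within a library, and 24 ratios were compared with Vehicle by exact two-sided permutation tests over 462 arrangements, whose smallest possible p is 0.00216. With 27HC, 7 of 8 ratios differed: Ebp rose relative to Fdft1 by 1.68, Nsdhl by 1.21, Dhcr7 by 1.11, Lss by 1.10, Hsd17b7 by 0.82 and Msmo1 by 0.60 (adjusted p = 0.00306 for each of these 6, exact permutation test). Sqle moved by -0.19 (adjusted p = 0.0307, exact permutation test) and Cyp51 by -0.13 (adjusted p = 0.278, exact permutation test). With GW3965 all 8 ratios rose, from 0.36 for Sqle to 0.95 for Lss, and Fdft1 was the member with the largest fall there. With GSK2033 7 of 8 differed: Cyp51 and Sqle fell relative to Fdft1, by -0.43 and -0.41, Ebp rose by 1.09, and Msmo1 moved by 0.01 (adjusted p = 0.816, exact permutation test). The Sqle call with 27HC was lost on leaving out any of Vehicle replicates 2, 3 and 5 and 27HC replicates 1, 4 and 5 (-0.19 to -0.16), and the Cyp51 call with GSK2033 without Vehicle replicate 1, 4 or 6 or GSK2033 replicate 5 (-0.42 to -0.30). The same Vehicle libraries entered all 24 ratios, and the 8 ratios of a comparison shared the same Fdft1 values. A change in Fdft1 moves all 8 together, so they are not 8 separate results.

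**Figure D4:**
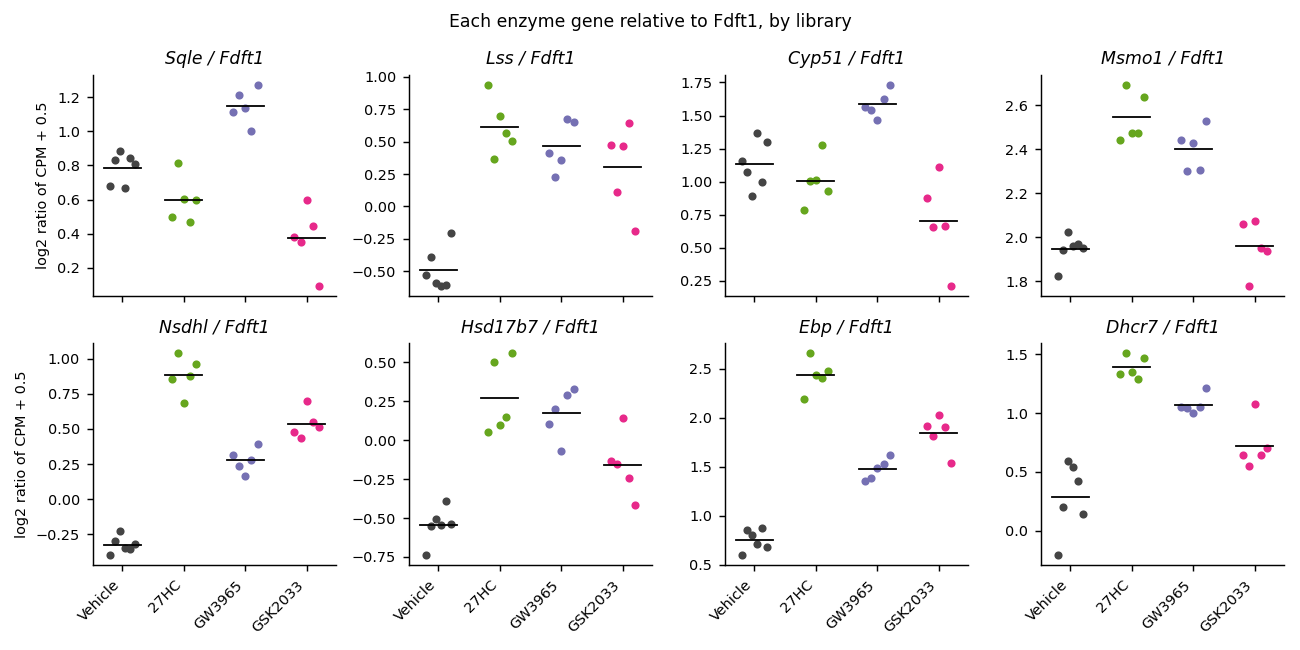
Log2 ratio of each enzyme gene to Fdft1 (y axis, CPM plus 0.5) in the libraries of Vehicle, 27HC, GW3965 and GSK2033 (x axis); points are libraries and bars group means. The Sqle ratio averages 0.79 in Vehicle, 1.15 in GW3965 and 0.37 in GSK2033.

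Across the 9 groups, Sqle levels ordered as E2 50.3, Vehicle 48.5, GW3965 39.2, GW3965 with the second compound 20.7, ICI 19.5, ICI with 27HC 16.04, GSK2033 16.03, GSK2033 with 27HC 14.8 and 27HC 12.6 CPM. Of the 8 steps between neighbours in that order, 3 were free of overlap: Vehicle to GW3965, GW3965 to GW3965 with the second compound, and ICI to ICI with 27HC. Fdft1 had 2 such steps, around GW3965 at 17.4 CPM, and Msmo1 had 2, between GW3965 at 94.0 and ICI at 56.1 CPM and between ICI with 27HC at 47.8 and GSK2033 with 27HC at 41.3 CPM. Cyp51 had 1, between GW3965 and ICI, Hsd17b7 had 1, between Vehicle at 19 and ICI at 13.4 CPM, and Ebp had 1, between GSK2033 at 45.2 and ICI with 27HC at 39.7 CPM. Lss, Nsdhl and Dhcr7 had 0, so the libraries of all their neighbouring groups overlapped; overlap does not show that 2 groups are alike, and most neighbouring steps were not tested. Group means of log2 CPM spanned 1.99 for Sqle, 1.87 for Cyp51, 1.77 for Fdft1, 1.43 for Msmo1, 1.19 for Hsd17b7, 1.12 for Dhcr7, 0.92 for Lss, 0.64 for Nsdhl and 0.40 for Ebp.

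Over the 9 group means, which share libraries and scaling, Pearson's r of a member with the mean of the others was 0.997 for Cyp51, 0.984 for Sqle, 0.982 for Hsd17b7, 0.976 for Msmo1, 0.925 for Fdft1, 0.917 for Dhcr7, 0.916 for Nsdhl, 0.799 for Lss and 0.653 for Ebp. Genes outside the list with a pattern close to the members' mean were Idi1 (0.993), Hmgcs1 (0.982), Parva (0.980), Tead3 (0.971), Srebf2 (0.968), Terf2 (0.965) and Stard4 (0.963). Parva, Tead3 and Terf2 were also highest in Vehicle, E2 and GW3965, over small ranges of log2 CPM, 0.43, 0.45 and 0.17, and Idi1 over 2.78. The order of the other groups differed. The members' mean was lowest in 27HC, Parva in ICI with 27HC, and Tead3, Terf2 and Idi1 in GSK2033 with 27HC. With 9 points, high in Vehicle, E2 and GW3965 and lower elsewhere, a high r does not show a shared order of all groups.

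**Figure D5:**
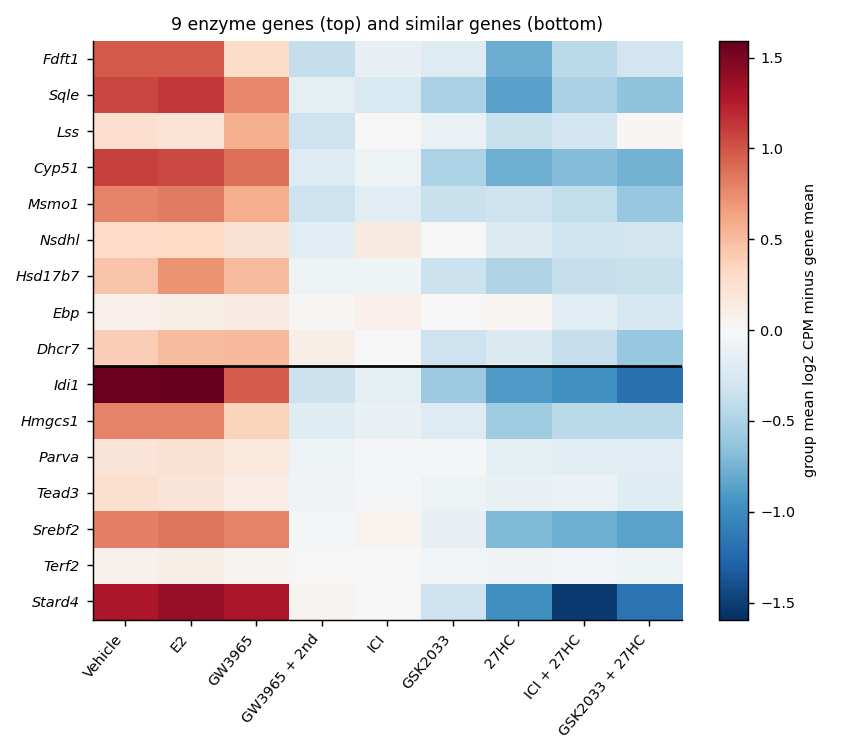
Group mean log2 CPM minus the gene's mean over groups (colour) in the 9 treatment groups (x axis) for the 9 enzyme genes and, below the line, 7 genes with a similar pattern (y axis). Vehicle, E2 and GW3965 are on the high side for nearly all genes shown, and Ebp and Terf2 are nearly flat, with ranges of 0.40 and 0.17.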

How the data were processed

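RNA from 46 libraries was measured by sequencing. Per the labels' protocols, stranded TruSeq libraries of polyadenylated RNA were sequenced as single reads of 100 nt on 3 lanes and demultiplexed with bcl2fastq 2.20. Per the submitters' processing notes, kallisto 0.44.0 and GRCm38 were used. The deposited values are estimated counts per gene, and whether the authors corrected them for transcript length is not given in the sources used here. They were rounded (no library total changed by more than 133). GENCODE M21 paired 24279 of 24671 gene identifiers with symbols.

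edgeR 4.0.16 (TMM scaling, filterByExpr, robust quasi-likelihood test, Benjamini-Hochberg threshold 0.05) was fitted to all libraries with 9 group means and 37 residual degrees of freedom. SEs were derived from each log2 fold change and its F statistic. The 95% intervals used these SEs with 37 degrees of freedom and are approximate. CPM are TMM-scaled, and log2 CPM used a prior count of 2. On data simulated for 27HC against Vehicle (13674 genes), 74% of genes changed 1.25-fold, 94% changed 1.5-fold and 98% changed 2-fold were recovered. The changed genes were drawn from those above a minimum mean count, and the spread was set by formula. That spread was narrower than the spread of Lss (SD 3.34 around 13.0 CPM in 27HC) and of Cyp51 (SD 3.10 around 17.0 CPM in 27HC). It was also narrower than that of Dhcr7 in Vehicle (SD 6.03 around 34.4 CPM). The shares therefore do not hold for Lss, Cyp51 and Dhcr7. At totals of 19354093 to 30921038 counts, members held at least 145 counts per library. Ratios to Fdft1 used CPM plus 0.5 and exact permutation tests. Similar genes were the 8 with the highest Pearson's r with the members' mean over group means, among genes of at least 1 CPM on average. All 9 members are named in each comparison, and of each other list the 2 members with the largest called change may be named (Srebf1, Mbtps2, Col1a1 and Sparc were named after their values were seen); some results for a gene of these lists are not reported here. Alternatives were DESeq2 1.42.0, RLE scaling, other filters, fits on the groups compared, a replicate block, other pseudocounts and leaving out each library. The members and lists were chosen with earlier results of these data known. Some labels conflict for the second compound given with GW3965, which is not named.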

Additional observations from a re-analysis of the deposited data

Results flagged for a closer look

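In 6 of 81 sets of libraries (9 genes in 9 groups), the highest or lowest library stood apart by Dixon's test; chance flags about 1 in 20 sets. Lss in E2 replicate 4 was at 15.7 CPM, with the other E2 libraries at 19.8 to 21.2. Msmo1 in 27HC replicate 2 was at 46.6 CPM, with the others at 50.2 to 51.3, and in ICI with 27HC replicate 5 at 50.1, with the others at 46.7 to 47.6. Nsdhl in GSK2033 replicate 5 was at 20.3 CPM, above 17.1 to 17.9. Hsd17b7 in 27HC replicate 5 was at 11.5 CPM, above 9.28 to 9.83. Ebp in ICI with 27HC replicate 2 was at 34.2 CPM, below 40.3 to 41.7.

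The change with 27HC differed between groups with and without GSK2033, by the interaction term, for 8 genes. Of all genes, 9.34% were called higher and 10.3% lower. Leaving out 1 library cost Ebp its call in 15 of 21 fits, Dhcr7 in 4 and Lss in 1. Ebp and Dhcr7 also lost it in a fit of only the groups compared. The differences on the log2 scale were 1.66 for Fdft1, 1.82 for Sqle, 0.74 for Lss, 1.63 for Cyp51, 0.87 for Msmo1, 0.91 for Hsd17b7, -0.23 for Ebp and 0.37 for Dhcr7. The change with 27HC differed between groups with and without ICI for 5 genes, by 1.47 for Fdft1, 1.67 for Sqle, 1.27 for Cyp51, 0.89 for Msmo1 and 0.62 for Hsd17b7. Of all genes, 7.39% were called higher and 9.97% lower. GSK2033 alone and ICI alone had already lowered these 5 genes against Vehicle.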

How the results depend on the processing

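Of 702 member fold changes under other processing, 689 stayed on their side of the threshold, 3 lost the call and 10 gained it; with 1 library left out these numbers were 1368, 27 and 18 of 1413. No called value changed sign, and among 767 values not called in either fit 41 did. With only the groups compared, the members called higher with GW3965 went from 0 to 1 (Lss, adjusted p = 0.0239), Lss with GSK2033 (0.0193) and Nsdhl with ICI (0.0317) gained a call, Dhcr7 in the GSK2033 interaction lost it (adjusted p = 0.0928), those below 0 for GSK2033 and 27HC from 1 to 0, and those below 0 for ICI and 27HC from 0 to 1. Without the low-count filter the GSK2033 count was also 0. With a library left out, members called higher with E2 ranged from 0 to 1, those below 0 for the GSK2033 interaction from 0 to 1, and those below 0 for the ICI interaction from 0 to 1. The causes were not tested. The median for ICI with 27HC against 27HC turned from 0.06 to -0.05 without 27HC replicate 2 and to -0.03 without ICI with 27HC replicate 4. With the longest transcript as length, 8 of 9 per-kilobase levels in Vehicle moved by more than 1 SD between libraries. Of 336 ratio results 10 lost their call. Libraries with the same replicate number showed little shared deviation (180 pairs, r from -0.072 to 0.0998, median 0.0123). The median for libraries with other numbers was -0.00322. In 12 of 46 cases a library was closest to its own number, and the count due to chance was not computed. The numbers were not used as pairs. A replicate block made Dhcr7 in the ICI interaction pass (0.29, adjusted p = 0.0417, quasi-likelihood test).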
